A study of Mus musculus with 4 samples.

Results

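The Dzip3 ChIP-seq peaks described here carried ubH2A without Ring1B: a ubH2A peak overlapped them, and no Ring1B peak and no input DNA peak did. They number 445 of the 6482 peaks in the Dzip3 list. They were chosen by the percentage of each Dzip3 peak that peaks of the other libraries cover, as the authors list it. This percentage had to be above 0 for ubH2A and equal to 0 for Ring1B and input DNA. Of all Dzip3 peaks, 49.6% overlapped a ubH2A peak, and of the 2827 without a Ring1B or input peak, the 445 were 15.7%. These shares and every read count of the 4 libraries in the peaks stand behind the choice, so they are given as a description without a test.

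The libraries come from E14 mES cells, a mouse embryonic stem cell line of strain 129/Ola at passage 3-5, grown without feeders in 2i + LIF, that is N2B27 medium with 1 µM PD0325901, a MEK inhibitor, 3 µM CHIR99021, a GSK3 inhibitor, and 1000 U/ml LIF. No genotype or treatment beyond this medium is given, and all 4 libraries share it. Each of Dzip3, Ring1B, ubH2A and input DNA has 1 library, so no value has a replicate error, and the antibodies were rabbit antibodies raised in the authors' laboratory. Cells were fixed for 10 min in 1% formaldehyde. The paper describes fragmentation with micrococcal nuclease and the sample labels shearing with a Picoruptor. The library sizes that the listed RPM imply were between 48.3 and 67.0 M reads, with peak calling done library by library. The paper gives a smaller number of uniquely mapped reads per sample, so levels per M reads rest on the sizes implied by the lists, and how reads that fit several places were counted is not given in the sources used here.

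Monoubiquitylated histone H2A (ubH2A, on lysine 119 in mammals) is a repressive mark that is placed mainly by the E3 ligase Ring1B, also called Rnf2, the catalytic subunit of Polycomb repressive complex 1. Dzip3 is another RING-type E3 ligase reported to ubiquitylate H2A. In mES cells, Polycomb complexes are known for holding developmental regulators silent, with their mark at CpG-rich promoters.

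Sequences of 7 peaks are shown as examples. The first 3 belong to the highest Dzip3 peaks. Among the peaks that touch no annotated UTR, the next 3 lie closest to a TSS. The last was added after its values were seen because it resembles the peak in Krtap1-3. All are read on the plus strand of mm9, 5′ to 3′, up to the central 300 bases. Capitals mark bases that lie in at least 1 word of 31 bases that occurs a single time in the genome, counting both strands, so that lower case is sequence with other copies.
Gm1818 peak, chr12:49443615-49443914: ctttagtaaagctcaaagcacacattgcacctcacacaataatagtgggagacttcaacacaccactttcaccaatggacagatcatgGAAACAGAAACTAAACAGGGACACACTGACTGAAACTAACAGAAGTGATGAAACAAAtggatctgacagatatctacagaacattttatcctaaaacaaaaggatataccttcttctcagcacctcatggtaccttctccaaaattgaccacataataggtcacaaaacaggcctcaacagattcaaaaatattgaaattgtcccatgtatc
Atp7b peak, chr8:23163567-23163804: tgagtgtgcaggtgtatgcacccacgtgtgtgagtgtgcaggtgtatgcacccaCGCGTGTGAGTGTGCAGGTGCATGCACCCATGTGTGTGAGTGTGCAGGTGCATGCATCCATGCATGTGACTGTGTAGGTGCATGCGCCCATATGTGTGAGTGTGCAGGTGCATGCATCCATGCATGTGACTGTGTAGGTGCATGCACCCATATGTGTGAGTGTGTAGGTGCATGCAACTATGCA
C230029F24Rik peak, chr1:48635124-48635359: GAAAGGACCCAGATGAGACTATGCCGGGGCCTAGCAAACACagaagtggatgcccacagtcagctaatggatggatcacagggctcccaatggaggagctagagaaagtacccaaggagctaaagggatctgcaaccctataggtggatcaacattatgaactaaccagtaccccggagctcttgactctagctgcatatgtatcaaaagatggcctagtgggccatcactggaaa
Olfr55 peak, chr17:33313326-33313620: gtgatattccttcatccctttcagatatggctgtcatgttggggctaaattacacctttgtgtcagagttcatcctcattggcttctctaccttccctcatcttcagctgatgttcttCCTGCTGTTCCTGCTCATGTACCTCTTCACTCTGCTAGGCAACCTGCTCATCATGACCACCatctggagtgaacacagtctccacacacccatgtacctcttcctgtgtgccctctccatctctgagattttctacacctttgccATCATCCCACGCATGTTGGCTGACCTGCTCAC
Pitpnm1 peak, chr19:4111929-4112137: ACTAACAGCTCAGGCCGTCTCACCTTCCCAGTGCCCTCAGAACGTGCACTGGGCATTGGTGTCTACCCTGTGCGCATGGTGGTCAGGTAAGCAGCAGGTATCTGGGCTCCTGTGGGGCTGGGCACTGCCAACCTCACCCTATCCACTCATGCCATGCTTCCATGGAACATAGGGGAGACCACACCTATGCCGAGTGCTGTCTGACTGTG
Krtap1-3 peak, chr11:99452279-99452578: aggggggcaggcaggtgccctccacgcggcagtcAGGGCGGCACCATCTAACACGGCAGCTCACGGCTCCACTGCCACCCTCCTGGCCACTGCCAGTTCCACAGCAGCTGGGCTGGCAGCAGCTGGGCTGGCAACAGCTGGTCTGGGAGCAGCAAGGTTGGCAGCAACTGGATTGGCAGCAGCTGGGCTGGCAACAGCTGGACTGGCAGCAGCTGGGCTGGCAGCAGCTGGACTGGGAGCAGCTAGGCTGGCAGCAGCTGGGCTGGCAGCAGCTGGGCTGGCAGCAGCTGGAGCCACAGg
Gm3250 peak, chr10:77245009-77245208: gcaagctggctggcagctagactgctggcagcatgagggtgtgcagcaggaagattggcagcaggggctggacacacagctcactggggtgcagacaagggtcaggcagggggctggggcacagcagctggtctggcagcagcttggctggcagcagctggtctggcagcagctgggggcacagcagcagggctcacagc

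Most bases of the Gm1818 and C230029F24Rik peaks were in lower case, with 57 of 300 and 41 of 236 bases in capitals. The Atp7b peak is a tandem repeat of a longer unit in which GTGCATGCA-like stretches recur. In it, 184 of 238 bases were in capitals. The Pitpnm1 peak was in capitals throughout its 209 bases, and the Gm3250 peak had none among its 200. The Krtap1-3 and Gm3250 peaks lie on different chromosomes and were identical at 146 of 191 aligned positions, an identity of 76.4%.

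The 445 peaks were short and of moderate height. Their median length was 250 bp, with the middle 50% between 200 and 317 bp and the longest at 670 bp. The median height was 39 extended reads, or 0.732 RPM, and the highest reached 105 extended reads. The listed fold over input DNA had a median of 8.21 (95% order-statistic interval over peaks 7.32 to 9.32) and a range of 1.51 to 151. The median was below those of 8.99 in the Dzip3 peaks with both Ring1B and ubH2A, 13.5 in those with Ring1B alone and 12.4 in those with no other peak, all without an input peak. A listed fold of at least 2 was reached by 438 of the 445, or 98.4%, and a fold of at least 10 by 187. Of all Dzip3 peaks, those over an input peak included, 82.9% reached a fold of 2, and 99.7% did in each of the 3 other kinds without an input peak.

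Dzip3 and ubH2A reads were high in these peaks, Ring1B reads lower and input reads lowest. The median peak held 78 Dzip3 reads (range 38 to 249), 41 Ring1B reads (0 to 92), 80 ubH2A reads (25 to 254) and 8 input reads (0 to 48). Levels per kb and per M reads of the library allow for peak length and library size, but not for differences between antibodies. In these units the medians were 5.94 for Dzip3, 4.76 for ubH2A, 3.05 for Ring1B and 0.621 for input DNA. The level of ubH2A was close to that of Dzip3, with a median ratio of 0.806 after 1 read was added to each library.

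**Figure D1:**
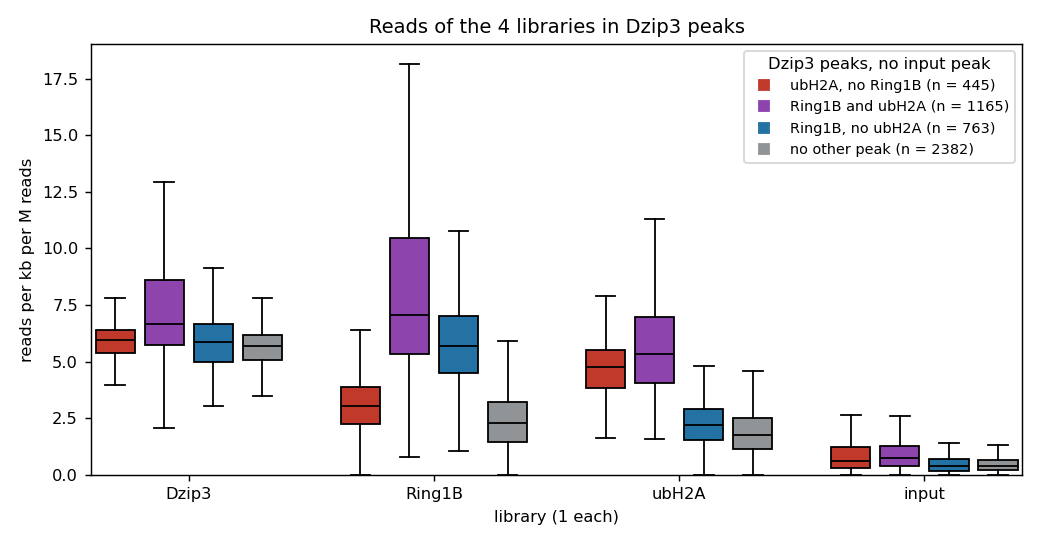
Reads per kb per M reads (vertical axis) of the 4 libraries (horizontal axis) in Dzip3 peaks without an input peak, split by overlap with Ring1B and ubH2A peaks; lines are medians, boxes the middle 50% of peaks and whiskers reach up to 1.5 box heights, with farther peaks not drawn. In the 445 peaks with ubH2A and without Ring1B the median was 4.76 for ubH2A and 3.05 for Ring1B, against 5.33 and 7.07 in the peaks with both.

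The absence of a Ring1B peak did not mean an absence of Ring1B reads. After scaling to library size, 433 of the 445 (97.3%) held more Ring1B than input reads, and the other 12 did not. The same held for 90.0% of all Dzip3 peaks, those over an input peak included, and for 94.9% of the peaks with no other peak. The median Ring1B level was 3.73 times input DNA (3.45 to 4.11), with 1 read added to each library. In the 2382 Dzip3 peaks that overlapped no other peak, the same ratio was 4.67, and their Ring1B level per kb per M reads was 2.28. Ring1B peaks of up to 300 bp, of which there are 4960, held a median of 68 Ring1B reads and their 5th percentile was 48. Of the 310 peaks with ubH2A and without Ring1B in that length range, 83 held at least 48 Ring1B reads and 7 held at least 68. Sites under and over the caller's threshold for Ring1B thus overlapped in their reads.

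The balance of ubH2A and Ring1B was the reverse of that in Dzip3 peaks with both. ubH2A exceeded Ring1B, scaled to library size, in 393 of the 445 peaks, where 37.0% of all Dzip3 peaks showed it, and fell short of it in 52. The choice of the peaks fixes most of this direction. The median ratio of ubH2A to Ring1B was 1.48 (1.42 to 1.54), against 0.734 in the 1165 Dzip3 peaks with both Ring1B and ubH2A, 0.377 in the 763 with Ring1B and no ubH2A and 0.772 in the 2382 with neither. The ubH2A level of 4.76 stood between 5.33 in the peaks with both and 2.19 in those with Ring1B alone.

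**Figure D2:**
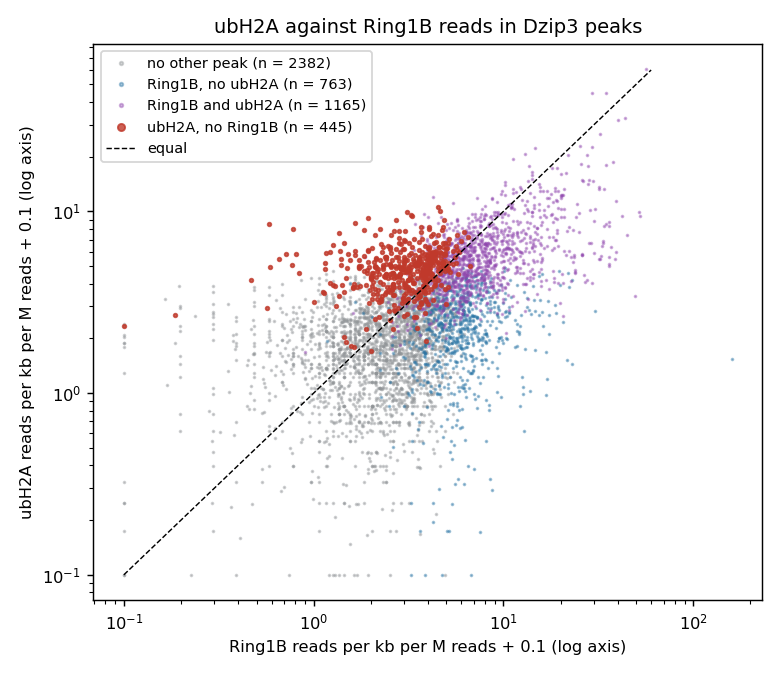
ubH2A reads (vertical) against Ring1B reads (horizontal), both per kb per M reads with 0.1 added and on log axes, for each Dzip3 peak without an input peak; the dashed line marks equal values. Of the 445 peaks with ubH2A and without Ring1B, 393 lie above the line by scaled reads and 52 lie under it, and they border on the other kinds of peaks without a gap.

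The overlap with ubH2A was large in most of the peaks. The ubH2A peak covered a median of 89.4% of the Dzip3 peak, at least 50% in 391 and all of it in 128. The ubH2A peak itself was found in the analysed part of the ubH2A list for 385 of the 445, as 382 distinct peaks. Their median length was 292 bp, their median fold over input DNA 6.73 (5.90 to 7.47) and the median offset between the 2 peak centres 41 bp. The median fold of all ubH2A peaks in the list was 4.71. Peaks over an input peak are included there, while the choice of the 445 left out Dzip3 peaks over one.

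Peaks at the edge of the choice had low values on the side of the threshold. Just inside it, a ubH2A peak covered 1.22% of the Dzip3 peak in an intron of Tmem181b-ps (chr17:6448267-6448513), which held 84 Dzip3, 37 Ring1B, 42 ubH2A and 6 input reads. It covered 1.5% of the peak 59.2 kb from Foxn3 and 2.00% of the peak in an intron of Vipr1. Just outside it, the peak 423 kb from Chrm2 lay directly beside a ubH2A peak without sharing a base, with 43 Dzip3, 34 Ring1B, 20 ubH2A and 10 input reads. A Ring1B peak lay 2 bp from it and another Dzip3 peak 8 bp. Also just outside, the peaks in an intron of Btbd9 and 104 kb from Myom2 held 36 and 22 ubH2A reads. The Foxn3 peak inside held 34. On the Ring1B side, a Ring1B peak covered 0.480% of the peak 268 kb from Gm17459, which held 154 Dzip3, 51 Ring1B, 86 ubH2A and 9 input reads. The peaks 36.1 kb from 4930569F06Rik and 77.6 kb from Rpap3, also covered in small part by a Ring1B peak, held 21 and 35 Ring1B reads. In these few examples, the read counts inside and outside the threshold overlapped.

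Ring1B peaks were often nearby. A Ring1B peak lay within 200 bp of 34 of the 445, within 1 kb of 82, within 10 kb of 173 and within 100 kb of 325. The median gap to the nearest Ring1B peak was 22.8 kb (16.3 to 36.9), against 77.4 kb (70.4 to 83.0) for the 2382 Dzip3 peaks with no other peak. Another Dzip3 peak lay within 10 kb of 180 of the 445, a share of 40.4% (95% Wilson interval 36.0% to 45.1%). That share was 13.2% among the peaks with no other peak, 24.0% among those with Ring1B alone and 36.7% among those with both Ring1B and ubH2A. Among all Dzip3 peaks, those over an input peak included, it was 36.0% (34.8% to 37.2%). The Wilson intervals here and in the following cover counting error only.

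**Figure D3:**
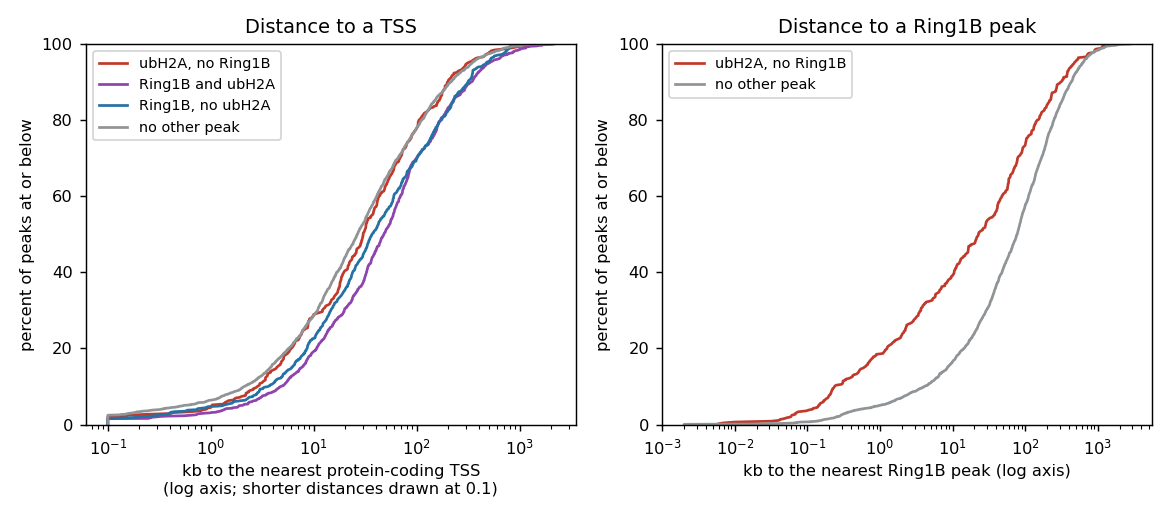
Cumulative percent of Dzip3 peaks (vertical) by the distance in kb (horizontal, log axis) to the nearest protein-coding TSS on the left and to the nearest Ring1B peak on the right. The median distance to a TSS was 30.2 kb for the 445 peaks with ubH2A and without Ring1B, and their median gap to a Ring1B peak was 22.8 kb, against 77.4 kb for the peaks with no other peak.

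Few of the peaks lay at promoters. The median distance to the nearest protein-coding TSS was 30.2 kb (25.9 to 35.9), 63 of the 445 lay within 4 kb of a TSS (14.2%, 11.2% to 17.7%), 129 within 10 kb and 347 within 100 kb. Among all Dzip3 peaks the share within 4 kb was 13.3% (12.4% to 14.1%). It was 8.58% (7.11% to 10.3%) in the peaks with both Ring1B and ubH2A, whose median distance was 47.8 kb (43.0 to 55.2). In the peaks with no other peak the share was 15.8% (14.4% to 17.3%) and the median distance 26.6 kb (24.3 to 28.9). The peaks with ubH2A and without Ring1B were thus nearer to TSSs than those with both marks by a margin wider than the counting error. Their interval for the share within 4 kb overlapped that of the peaks with no other peak and of all Dzip3 peaks.

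The protein-coding annotation placed 25 of the 445 in an exon, 188 in an intron and 232 between genes. An annotated gene of another kind held 18 of these 232. The intron share was 42.2% (37.7% to 46.9%), against 31.2% (28.6% to 34.0%) in the peaks with both Ring1B and ubH2A and 41% in those with no other peak. The exon share was 5.62% (3.83% to 8.16%), against 1.97% and 9.82%. An annotated UTR was touched by 15 of the 445.

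The highest peaks by Dzip3 RPM were mostly intronic or far from genes. The highest of all lay between genes, 217 kb from Gm1818 (chr12:49443607-49443922), with 209 Dzip3, 61 Ring1B, 81 ubH2A and 7 input reads. The next was in an intron of Atp7b, which encodes a copper-transporting ATPase, 6.69 kb from its TSS (chr8:23163566-23163804), with 141 Dzip3, 30 Ring1B, 80 ubH2A and 5 input reads. In both, Dzip3 stood well above the other libraries, and ubH2A exceeded Ring1B in reads. Scaled to library size, the ratio of ubH2A to Ring1B was 1.02 at Gm1818 and 2.02 at Atp7b.

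The peak 666 kb from C230029F24Rik (chr1:48635123-48635359) held 176 Dzip3, 50 Ring1B, 70 ubH2A and 22 input reads. Its input level was the highest of the 10. The peak in an intron of 2900026A02Rik, 21.6 kb from the lens crystallin gene Crybb3, held 140 Dzip3, 37 Ring1B, 72 ubH2A and 6 input reads. The peak in an intron of Slc39a11, a member of the zinc transporter family, held 192 Dzip3, 45 Ring1B, 132 ubH2A and 8 input reads. The peak 362 kb from Zic4, a zinc-finger transcription factor gene, held 169 Dzip3, 60 Ring1B, 81 ubH2A and 5 input reads. All 31-base words of the last one occurred elsewhere in the genome, against 5.14% of those at Slc39a11.

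Near Fam59a, 5.98 kb from the TSS, the peak held 215 Dzip3, 12 Ring1B, 94 ubH2A and 11 input reads. This was the lowest Ring1B count of the 10, close to the input count. The peak in an intron of 1700112E06Rik (chr14:23167970-23168640) held 220 Dzip3, 54 Ring1B, 254 ubH2A and 21 input reads, and was the longest of the 445. The peak 17 kb from Mrfap1 held 153 Dzip3, 55 Ring1B, 89 ubH2A and 6 input reads. The peak in an intron of Pde9a, a cGMP phosphodiesterase gene (chr17:31567305-31567688), held 150 Dzip3, 88 Ring1B, 131 ubH2A and 0 input reads. Its Ring1B reads were the highest of the 10, and no input read lay in it.

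**Figure D4:**
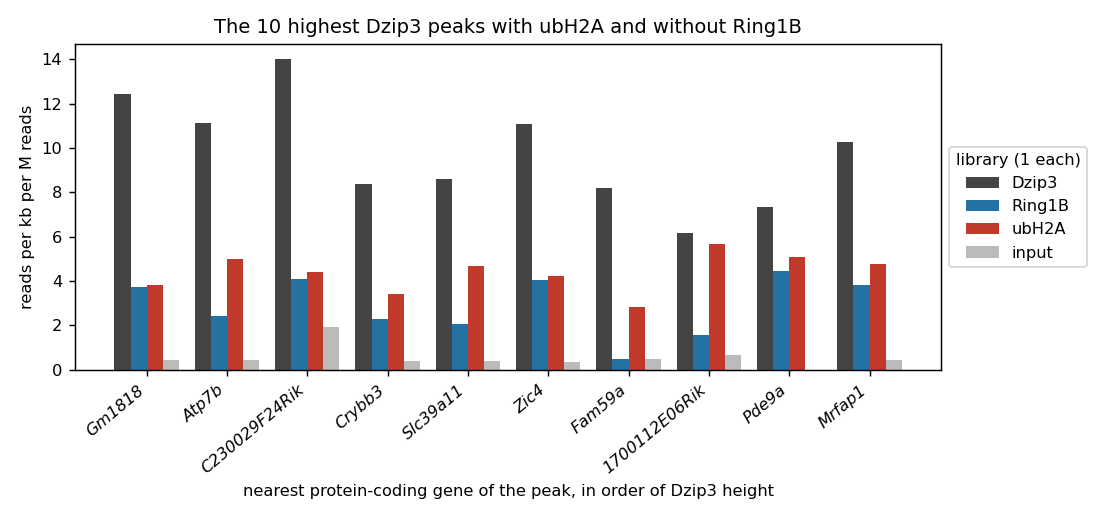
Reads per kb per M reads (vertical) of the 4 libraries in the 10 peaks with ubH2A, without Ring1B and with the highest Dzip3 RPM, named by the nearest protein-coding gene (horizontal). Dzip3 is the tallest bar in each of the 10, ubH2A exceeds Ring1B in all, and the Pde9a peak held 0 input reads.

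Peaks with few input reads led the order by fold. The 5 highest listed folds were 151 at Pde9a, 143 at the peak 105 kb from Scaf8, 118 at Gm3233, 88.0 at the peak 128 kb from Mtpap and 86.0 at A730018C14Rik. At 0 input reads, which 21 of the 445 peaks had, the listed fold equals the Dzip3 reads plus 1 and is no measured ratio. Against a floor of 3 input reads, Dzip3 was at least 45.3-fold higher than input DNA at Pde9a, scaled to library size, and at least 42.9-fold higher at the Scaf8 peak. The Gm3233 peak held 249 Dzip3, 79 Ring1B, 165 ubH2A and 1 input reads, a scaled ratio of 226 with an exact 95% interval of 40.1 to 8952.

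Of the 5 peaks with most ubH2A reads per kb, the one near Gm17697 was 270 bp long. The others were 200 bp, the shortest length among the 445. The first lay in an intron of Clec16a, an autophagy-related gene (chr16:10564114-10564314), with 67 Dzip3, 46 Ring1B, 141 ubH2A and 0 input reads. The next lay 18.4 kb from BC049730, with 65 Dzip3, 47 Ring1B, 134 ubH2A and 2 input reads, and in an intron of Cdh4, the gene of R-cadherin, with 77 Dzip3, 31 Ring1B, 132 ubH2A and 8 input reads. The peak 14.8 kb from Gm17697 held 92 Dzip3, 44 Ring1B, 172 ubH2A and 2 input reads, and the peak in an intron of Spats2 held 46 Dzip3, 33 Ring1B, 125 ubH2A and 1 input reads. In all 5 the ubH2A reads outnumbered the Dzip3 reads, and after scaling ubH2A exceeded Dzip3 in 87 of the 445.

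The 20 peaks nearest to a TSS lay within 1 kb of it, and several belong to multigene families. A TSS of Gm14179, Cd300lh, Gm5458, Gm3435, Olfr55 or Pitpnm1 was inside the peak. The peak in the olfactory receptor gene Olfr55 held 90 Dzip3, 23 Ring1B, 73 ubH2A and 12 input reads. The peak in an intron of Pitpnm1, which encodes a phosphatidylinositol transfer protein, held 71 Dzip3, 33 Ring1B, 57 ubH2A and 2 input reads. In both, ubH2A was above Ring1B and far above input DNA.

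The peak in Cd300lh, a gene of the CD300 immune receptor family, held 77 Dzip3, 52 Ring1B, 71 ubH2A and 19 input reads, and the peak in Gm5458 held 100, 63, 108 and 32 reads of the same libraries. Their listed folds of 3.50 and 2.74 were low beside the median of 8.21. In Gm14179 the peak held 69 Dzip3, 15 Ring1B, 67 ubH2A and 3 input reads, and in Gm3435, which overlaps Gm3448, 93, 60, 74 and 8. The sequence in Gm3435 had no 31-base word that occurs a single time. Whether its reads could be told apart from those of other copies was not tested.

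Next in distance were Krtap1-3 at 33 bp, Gm3250 at 79 bp, Clcn4-2 at 91 bp, Gm3233 at 149 bp, H2-Q7 at 158 bp, Gm7137 at 232 bp, mt-Co1 at 410 bp, Sp100 at 426 bp, Hjurp at 620 bp and Gm1979 at 800 bp. They were followed by Ift140, Impact, Accn2 and Fgd4 at 816 to 999 bp. Clcn4-2 encodes a chloride/proton exchanger, and its peak held 68 Dzip3, 71 Ring1B, 68 ubH2A and 8 input reads, so that Ring1B was not below ubH2A there. H2-Q7 is a non-classical MHC class I gene, and the peak in its exon held 82 Dzip3, 59 Ring1B, 98 ubH2A and 8 input reads. The peak in mt-Co1, a cytochrome c oxidase subunit gene of the mitochondrial genome, which has no histones, held 71 Dzip3, 25 Ring1B, 71 ubH2A and 14 input reads. Before scaling, Dzip3 and ubH2A reads were equal there, as they were at Clcn4-2. Scaled to library size with 1 read added, Dzip3 was 4.35 and ubH2A 3.46 times input DNA at mt-Co1. At Clcn4-2 the values were 6.95 and 5.52.

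Genes of hair keratin-associated proteins are one of these families, described after the values were seen. The peak in the exon of Krtap1-3 (chr11:99452236-99452620) held 130 Dzip3, 56 Ring1B, 78 ubH2A and 6 input reads. Of the 46 annotated Krtap genes, 4 had one of the 445 peaks within 10 kb of a TSS and 16 within 100 kb, where 155 and 957 of all 22380 protein-coding genes did. A Dzip3 peak of any kind lay within 10 kb of 16 of the 46 Krtap genes (34.8%), against 6.37% of all genes, so the share was also high for Dzip3 peaks as a whole. In other families, 2 of the 3 Sp100 family genes had one of the 445 within 10 kb and all 3 within 100 kb. A Dzip3 peak of any kind lay within 10 kb of all 3. Of 9 Ugt1a genes, 4 had one of the 445 within 100 kb. That share was 16.7% of 30 MHC class I genes and 5.93% of 371 zinc finger protein genes. It was 1.98% of 1113 olfactory and 3.35% of 328 vomeronasal receptor genes, under the 4.28% of all genes. Neighbouring genes share peaks, so these counts are not independent. On chromosome 10, a cluster of genes that holds Krtap12-1 contained 5 of the peaks, with a GC content of 63.3% to 66.0%, Dzip3 reads of 61 to 249, Ring1B reads of 20 to 84, ubH2A reads of 43 to 165 and input reads of 0 to 6. The 5 peaks had listed folds between 9.32 and 118. Dzip3 peaks of any kind within 100 kb of Krtap12-1 numbered 10, of which 5 were among the 445.

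One of the peaks lay within 100 kb of a TSS of 957 protein-coding genes, 4.28% of 22380. Any Dzip3 peak lay within 100 kb of 8141 genes, or 36.4%. Within 10 kb the count was 155 genes and within 4 kb 72. The mitochondrial genes in these counts all come from the 1 mitochondrial peak. Without that peak, the 957 genes within 100 kb were 944. More than 1 of the 445 peaks lay within 100 kb of 124 of the 957 genes. The most, 7 each, were near Scaf8, an RNA polymerase II C-terminal domain-associated factor gene, Dynlt1b, a dynein light chain gene, and Tmem181b-ps, and 14 genes had 5 each. Dzip3 peaks of any kind within 100 kb of Scaf8, Dynlt1b and Tmem181b-ps numbered 21, 29 and 30.

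The peaks formed clusters at a few places. Joined at gaps of up to 10 kb they made 409 loci, with 387 peaks alone in theirs and 26 peaks in the 6 loci of 3 or more. The largest held 7 peaks (chr17:3020738-3036028), 78.9 kb or more from Scaf8, with 51 to 123 Dzip3, 27 to 54 Ring1B, 63 to 110 ubH2A and 2 to 12 input reads. The locus in Tmem181b-ps (chr17:6448267-6472380) held 5 peaks with 83 to 144 Dzip3, 37 to 69 Ring1B, 42 to 88 ubH2A and 6 to 24 input reads. The locus near Gm2964 on the X chromosome (chrX:32094043-32106708) held 5 peaks with 70 to 168 Dzip3, 26 to 80 Ring1B, 82 to 192 ubH2A and 16 to 48 input reads. Input reads were thus highest at the X locus, where the listed folds were 1.99 to 3.88, and lowest at the Scaf8 locus, where they were 4.36 to 34.5.

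A cluster of another kind, also chosen after its values were seen, lay on chromosome 1 in Heatr7b1 and Hjurp. Hjurp encodes the chaperone that loads the centromeric histone CENP-A. The 4 peaks there (chr1:90124624-90166786) held 69 to 112 Dzip3, 36 to 79 Ring1B, 74 to 138 ubH2A and 9 to 16 input reads. None of their 31-base words occurred elsewhere in the genome, and 2 of the 4 lay in exons of Heatr7b1. Dzip3 peaks of any kind within 100 kb of Hjurp numbered 10, these 4 included. On the same chromosome, 6 of the peaks lay between 87 and 88 Mb around Sp110, Sp140 and Sp100, the last being a gene of a nuclear body protein, with input reads of 9 to 34 and listed folds of 2.87 to 5.95. That stretch held 70 Dzip3 peaks of any kind, so 6 of 70 stands beside 445 of 6482 in the whole list.

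By chromosome, 40 of the peaks lay on chromosome 14, 39 on chromosome 1, 28 on the X chromosome, 1 on the mitochondrial genome and none of the 58 Dzip3 peaks of the Y chromosome was among them. The share of the Dzip3 peaks of a chromosome that belonged to the 445 was 11.7% on chromosome 14 and 10.9% on chromosome 17, and 2.84% on chromosome 8. Within 5 Mb of the first sequenced base of a chromosome lay 67 of the 445 (15.1%, 12% to 18.7%), against 9.01% of all Dzip3 peaks and 8.93% of those with both Ring1B and ubH2A, a count made after the clusters were seen. The share was 13.5% (12% to 15.2%) among the Dzip3 peaks that overlap an input peak, an interval that overlaps that of the 445.

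The share of developmental regulators near one of the peaks was close to that of all genes. Of 179 developmental transcription factor genes from families such as Sox, Fox, Gata, Tbx, Pax, Lhx, Neurod, Neurog, Nkx, Dlx and Irx, 10 had one of the peaks within 100 kb, 5.59% (3.06% to 9.98%), beside 4.28% of all genes. Neighbours among the 10 share a peak, so they are not independent and the interval is too narrow. The peak 62.5 kb from Dlx6, which also counts for Dlx5, held 83 Dzip3, 34 Ring1B, 34 ubH2A and 5 input reads. Before scaling, its ubH2A reads equalled its Ring1B reads and were well under its Dzip3 reads. The ubH2A library had 67.0 M reads and the Ring1B library 51.8 M, so scaled ubH2A was below Ring1B there.

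The peak nearest to one of these genes lay 17.8 kb from the homeobox gene Irx1, with 92 Dzip3, 71 Ring1B, 87 ubH2A and 6 input reads. The peak 25.9 kb from Sox13, an HMG-box gene, held 79 Dzip3, 1 Ring1B, 39 ubH2A and 4 input reads, so that Ring1B was at or below input DNA. The peak 59.6 kb from the T-box gene Tbx18 held 130 Dzip3, 70 Ring1B, 91 ubH2A and 4 input reads, and that 59.2 kb from the forkhead gene Foxn3 held 68 Dzip3, 35 Ring1B, 34 ubH2A and 2 input reads. None of the 10 genes had the peak within 4 kb of its TSS.

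Of 53 Wnt, Fgf and Bmp ligand genes, 3 had one of the peaks within 100 kb, 5.66% (1.94% to 15.4%). The peak 6.53 kb from Fgf1, in an intron of Arhgap26, held 56 Dzip3, 26 Ring1B, 60 ubH2A and 15 input reads, the peak 41 kb from Fgf9 held 67, 58, 81 and 0, and the peak 73.4 kb from Fgf7 held 79, 60, 74 and 14. Of 19 pluripotency genes only Pou5f1, the gene of Oct4, had a peak within 100 kb, which is the one in the exon of H2-Q7, 63.4 kb away. None of the 26 Polycomb genes, 9 H2A ubiquitin ligase and deubiquitylase genes, 7 cyclin-dependent kinase inhibitor genes and 10 further genes had one. A Dzip3 peak of any kind lay within 100 kb of 11, 1, 0 and 3 of them. The further genes came from the text of the paper. It reports Dzip3 occupancy by ChIP-qPCR at the promoters of Neurod1, Neurog1 and Cdh2. It also counts Neurog1, Cdh2, Bspry and Shank3 among the Dzip3 targets studied for chromatin conformation. Others, such as Stra8 and Eomes, it describes as upregulated by Dzip3 knockdown and not as bound by Dzip3. With lists of 7 to 26 genes and a background of 4.28%, a count of 0 sets no list apart.

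The sequence of the peaks was neither CpG-rich nor mostly unique. Their median GC content was 50% (49.0% to 50.8%), against 51.0%, 52.7% and 52.5% in the Dzip3 peaks with both Ring1B and ubH2A, with Ring1B alone and with no other peak. The median ratio of observed to expected CpG was 0.128 and the median number of CpGs 2. Of the 31-base words in the 445 peaks, 58.7% occurred more than once in the genome, against 76.5% in the peaks with both, 70.4% in those with Ring1B alone and 36.7% in those with no other peak. All words of 42 peaks occurred a single time and all words of 89 peaks occurred elsewhere too.

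Repeats of high copy number were less common than in the Ring1B-bound kinds of peaks. The median word occurred at least 1000 times in 40 of the 445 (8.99%, 6.67% to 12%), against 30.7% (28.1% to 33.4%) of the peaks with both Ring1B and ubH2A and 29.5% (26.4% to 32.8%) of those with Ring1B alone. It was 10.5% (9.29% to 11.7%) in those with no other peak. The median word occurred a single time in 176 (39.6%, 35.1% to 44.2%), against 16.9%, 26.6% and 64.4%.

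**Figure D5:**
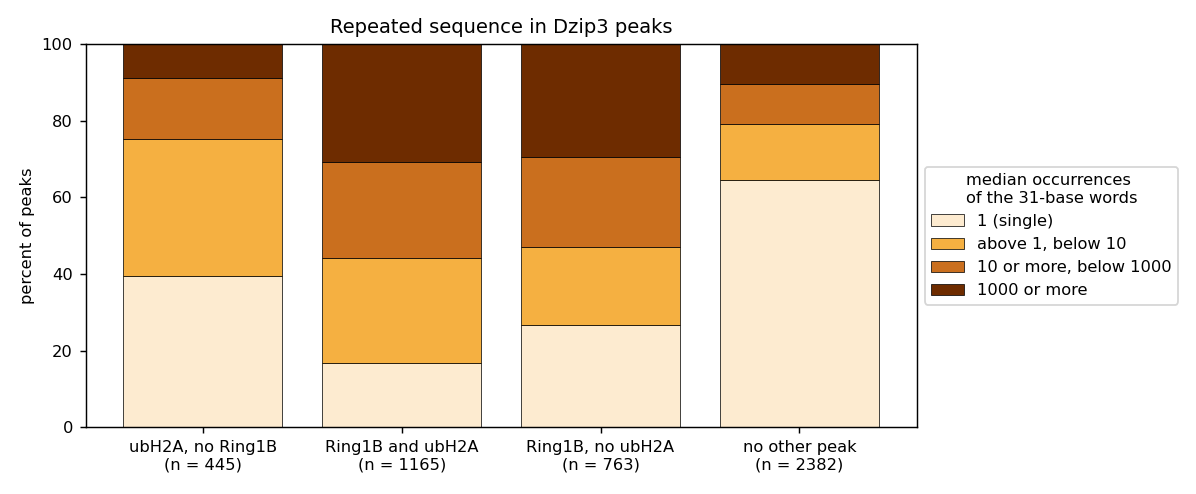
Percent of Dzip3 peaks (vertical) by how often their median 31-base word occurs in the genome (colours), for the 4 kinds of Dzip3 peaks without an input peak (horizontal). Of the 445 peaks with ubH2A and without Ring1B, 39.6% have a median word that occurs a single time and 8.99% one that occurs at least 1000 times, against 16.9% and 30.7% of the peaks with both.

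Input and Ring1B levels differed most with the copy number of the sequence. In the 176 peaks whose median word occurs a single time the medians were 76 Dzip3, 34 Ring1B, 75.5 ubH2A and 6 input reads, with a listed fold of 11.7 and a ubH2A to Ring1B ratio of 1.75. In the other 269 they were 80, 47, 82 and 12 reads, with a fold of 6.22 and a ratio of 1.37. Dzip3 levels per kb per M reads were 5.96 and 5.94, and input levels 0.426 and 0.842. Ring1B levels were 2.51 and 3.42, and ubH2A levels 4.53 and 4.88. In peaks made of repeated words, some reads may fit more than 1 copy. How many did, and their part in the Ring1B and ubH2A levels, was not tested.

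Short motifs were searched on both strands in the central 200 bases of each peak, a search made after the values were seen. CATGTGC occurred in 82 of the 445 (18.4%, 15.1% to 22.3%), against 8.73% (8.07% to 9.44%) of all Dzip3 peaks, 5.92% of those with both Ring1B and ubH2A and 11.8% of those with no other peak. CACACAC occurred in 31% (26.9% to 35.5%), against 21.4% of all Dzip3 peaks and 28.5% (26.8% to 30.4%) of those with no other peak. CACGTG occurred in 6.97% (4.95% to 9.72%), against 4.12% of all Dzip3 peaks and 5.75% (4.89% to 6.76%) of those with no other peak. For both motifs the intervals of the 445 and of the peaks with no other peak overlapped. GGGCGG occurred in 1.80%, against 3.47% of all Dzip3 peaks and 3.86% of those with no other peak. These matches describe the letters of the peaks and do not show that a factor binds there.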

How the data were processed

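The authors sequenced 1 library from each ChIP (Dzip3, Ring1B, ubH2A) and 1 from input DNA, aligned the reads to mm9 with the Illumina Analysis Pipeline and called peaks on each library with the Partek Genomics Suite. For each peak the deposited counts are its height, in extended reads, and the reads that every library has in it. The deposited lists give the height as RPM, too. They further hold p-values of the peak caller, deposited but not used here, a ratio (fold) to input DNA scaled by the authors, and overlaps that the authors give in percent of the peak. In the deposited ubH2A and input lists, 1 row each runs on into a later row and was left out. The peaks between them were not analysed here, on chromosomes 1, 10 and 11 for ubH2A and also 12 for input DNA. Overlaps were therefore read from the listed percent values, which gave the same ubH2A call as the list for all 5430 Dzip3 peaks on the other chromosomes.

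Library sizes are the listed height divided by RPM. Positions are those of the lists, where length is end minus start, and sequences were read from the base after the listed start. Genes come from the GENCODE annotation of the same build (Ensembl release 65), with protein-coding genes and every annotated TSS used. Repeats were measured by counting each 31-base word on both strands of the genome. Shares have 95% Wilson intervals and medians order-statistic intervals over peaks. No p-values were computed, as no target has a second library and neither peaks nor genes replicate a condition.

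Peaks were named as the 10 highest by RPM, the 20 nearest to a TSS, the 5 highest by fold, the 5 highest by ubH2A reads per kb, those within 100 kb of a listed gene and those at the threshold, and genes as those with most peaks. Sequences are of the first 3 of each of the first 2 sets, passing over chromosome 18 and peaks that touch an annotated UTR, plus 1 added later. The values of 1 peak near a listed gene are not reported here. The peaks, gene lists and motifs were chosen with earlier results of these data known. The overlap and distance functions were tested on simulated peaks, where 700 of 700 planted overlaps and 2000 of 2000 distances were recovered. Software was Python 3.11.15, pysam 0.24.0, Biopython 1.88, numpy 2.4.6 and pandas 2.3.3, with scipy 1.17.1 for intervals, matplotlib 3.10.9 for plots and numba 0.67.0 for word counts.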

Additional observations from a re-analysis of the deposited data

How the results depend on the processing

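No paired analysis was possible because no target has more than 1 library. Of 125 alternative values, 93 stayed within the interval of the reported value, or within 1.5 times a count, and 32 moved. With a ubH2A overlap of at least 50%, the median ubH2A reads per kb were 327 and the share of repeated 31-base words 59.4%. That share was 56.5% without peaks that have a Ring1B peak within 1 kb and 56.2% outside the 10 densest windows. The stronger 50% by RPM were 222 peaks with medians of 331 Dzip3 and 297 ubH2A reads per kb and a fold of 9.40, near 543 genes, with 59.1% repeated words. With input-overlapping peaks kept there were 668 peaks, with 172 Ring1B and 60 input reads per kb, a fold of 4.34, an intron share of 36.1%, a GC content of 47.5% and 66.2% repeated words. An alternative added after the data were seen kept the 176 peaks whose median word occurs a single time, with 304 ubH2A, 130 Ring1B and 20.6 input reads per kb, a fold of 11.7, an intron share of 48.3%, 476 genes and 17.8% repeated words. With all annotated genes, the median TSS distance was 17 kb, 20.4% of peaks lay within 4 kb and 88.5% within 100 kb of a TSS, and 1592 genes had a peak. The gene count was 155 within 10 kb, 72 within 4 kb and 376 by the nearest gene only. The causes were not tested, apart from the smaller number of peaks, the wider gene set and the shorter distances that the alternatives set themselves. Reads of 1 library limit all values: a median peak held 8 input reads, and a fold at so few reads has a wide counting error.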
